A study of Mus musculus with 30 samples.

Results

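The genes described here encode the route by which long-chain fatty acids enter mitochondria and are shortened there: Cpt1a and Cpt1b (carnitine palmitoyltransferase 1 of the outer membrane), Slc25a20 (the carnitine-acylcarnitine carrier), Cpt2 (the inner-membrane transferase), Acadvl, Acadl and Acadm (acyl-CoA dehydrogenases for very long, long and medium chains), Hadha and Hadhb (the alpha and beta subunits of the trifunctional protein) and Acaa2 (a 3-ketoacyl-CoA thiolase). They were chosen by name as a textbook pathway, and are 10 of the 35120 genes in the count table. All 10 had a row, and 9 passed the filter on low counts in every comparison. Cpt1b did not pass in any.

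Fatty acids are activated to acyl-CoA outside the mitochondrial matrix, and the acyl group is passed to carnitine by Cpt1, the step that malonyl-CoA inhibits. The carrier Slc25a20 takes acylcarnitine across the inner membrane, and Cpt2 returns the acyl group to CoA. Each turn of beta-oxidation then comprises a dehydrogenase step, a hydratase step, a second dehydrogenase step and a thiolase step. White adipocytes mainly store and release fatty acids, whereas brown and beige adipocytes burn them for heat and are rich in these enzymes.

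The study examined mouse white fat after loss of β-catenin, the Wnt signal transducer encoded by Ctnnb1, in adipocytes. Libraries labelled Ctnnb1AdKO (here knockout) were set against sex- and age-matched Ctnnb1fl/fl controls, which carry the floxed alleles, and the labels give no other treatment and no age. Adipocytes that floated after collagenase digestion gave 6 control and 5 knockout libraries from males, and 6 control and 6 knockout libraries from females. The pelleted stromal-vascular cells (SVC), which hold the fat's precursor, immune and vessel cells, were sequenced from males only, as 3 control and 4 knockout libraries. The labels name the epididymal and the posterior subcutaneous depot for every library, also for females. They name neither the driver of the deletion nor the exons removed, and do not say that each replicate number is a separate mouse, so p-values measure the spread between these libraries, which may be technical.

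Total counts per library lay between 20484836 and 22209603. Ctnnb1 mRNA was not lower in knockout libraries: its log2 fold change was -0.03 in male adipocytes, 0.11 in female adipocytes and 0.08 in SVC (edgeR adjusted p = 0.919, 0.67 and 0.979). Counts over the whole gene therefore do not check the genotype labels. The adipocyte marker Adipoq ranged from 4047 to 7444 CPM (read counts scaled to a common library total) in the 23 adipocyte libraries and from 5.50 to 114.7 CPM in the 7 SVC libraries. Male knockout adipocyte replicate 5 stood apart in several of the genes below, and results that rest on it are given with and without it. All levels below are CPM adjusted by TMM scaling over the 30 libraries, fold changes are log2 values from edgeR's quasi-likelihood test, p-values were adjusted by the Benjamini-Hochberg method across every gene a comparison tested, and a gene was called at an adjusted p below 0.05.

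Promoter sequences are shown for 5 of the genes: Hadha and Hadhb because they are transcribed away from each other from neighbouring starts and their mRNAs varied together, Acadvl because it varied with them, and Cpt1a and Acadm because they varied least with the rest. Each is the RefSeq sequence of build GRCm38.p6, from 250 bases before the transcription start and 50 bases from it on, 5′ to 3′ on the gene's own strand. Capitals mark matches on either strand to AGGTCA (the core bound by many nuclear receptors), GGGCGG (the GC box), CCAAT, GCATGCGC (the NRF1 core) or CCGGAAGT (the ETS core).
Hadha, chr5:30154931-30155230, minus strand: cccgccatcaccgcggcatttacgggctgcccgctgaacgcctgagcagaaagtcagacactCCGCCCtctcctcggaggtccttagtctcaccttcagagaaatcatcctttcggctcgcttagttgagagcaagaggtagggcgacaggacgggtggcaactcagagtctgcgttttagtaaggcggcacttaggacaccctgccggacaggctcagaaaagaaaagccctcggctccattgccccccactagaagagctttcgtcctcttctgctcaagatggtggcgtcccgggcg
Hadhb, chr5:30155003-30155302, plus strand: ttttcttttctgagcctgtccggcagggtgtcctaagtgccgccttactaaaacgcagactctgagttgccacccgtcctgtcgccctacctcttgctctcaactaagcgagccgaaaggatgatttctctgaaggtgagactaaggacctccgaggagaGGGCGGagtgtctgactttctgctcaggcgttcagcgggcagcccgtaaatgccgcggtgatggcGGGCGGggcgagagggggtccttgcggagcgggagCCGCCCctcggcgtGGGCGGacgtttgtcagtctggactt
Acadvl, chr11:70015379-70015678, minus strand: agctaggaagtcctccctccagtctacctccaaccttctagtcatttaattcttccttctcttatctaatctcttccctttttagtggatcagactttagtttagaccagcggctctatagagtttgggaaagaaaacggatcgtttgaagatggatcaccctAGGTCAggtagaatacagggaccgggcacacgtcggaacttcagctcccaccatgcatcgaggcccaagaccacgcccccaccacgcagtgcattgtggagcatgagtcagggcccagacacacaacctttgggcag
Cpt1a, chr19:3323051-3323350, plus strand: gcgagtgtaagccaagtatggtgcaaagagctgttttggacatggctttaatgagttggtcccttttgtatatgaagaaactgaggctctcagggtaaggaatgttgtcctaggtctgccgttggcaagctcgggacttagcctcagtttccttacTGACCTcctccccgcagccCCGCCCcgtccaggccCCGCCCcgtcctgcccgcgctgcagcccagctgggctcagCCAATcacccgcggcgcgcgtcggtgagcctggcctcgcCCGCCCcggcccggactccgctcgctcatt
Acadm, chr3:153944594-153944893, minus strand: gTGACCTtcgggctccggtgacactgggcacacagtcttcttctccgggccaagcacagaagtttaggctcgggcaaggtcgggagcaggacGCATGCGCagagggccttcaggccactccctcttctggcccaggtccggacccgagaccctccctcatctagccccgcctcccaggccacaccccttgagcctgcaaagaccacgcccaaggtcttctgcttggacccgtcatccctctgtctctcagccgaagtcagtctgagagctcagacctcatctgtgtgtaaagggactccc

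The starts of Hadha and Hadhb lie 272 bases apart on opposite strands of chromosome 5, and their windows share 228 bases. Promoters of 8 of the 10 genes were searched, all but Cpt1b and Acaa2. GGGCGG was found in 6 of the 8, against 35.7% of the 32851 promoters of the same length. The only match in Hadha lies in the bases shared with Hadhb and is the same site as a match there, so these genes are not independent in that count. AGGTCA was found in 3 of the 8 (Cpt1a, Acadvl and Acadm), against 16.3% of all promoters. CCAAT was found in Cpt1a, against 37.4% of all promoters, CCGGAAGT in Cpt2 and Slc25a20, against 3.89%, and GCATGCGC in Acadm, against 2.71%. TATAAA was in 0 of the 8, against 13.6% of all promoters. A match describes letters and does not show that a factor binds.

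In control males the 9 genes differed in level among themselves. Mean CPM per kilobase of principal transcript in male control adipocytes was 223 for Acadm, 185 for Acadvl, 178 for Hadhb, 153 for Acadl, 150 for Acaa2, 105 for Hadha, 83.0 for Cpt2, 58.0 for Slc25a20 and 19.7 for Cpt1a. On this per-length scale the enzymes of the spiral stood above the carnitine shuttle, and Cpt1a was lowest of the 9. Transcript lengths came from the GENCODE vM21 annotation, an earlier build than that of the files.

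Cpt1b, the form of Cpt1 best known from muscle and brown fat, had between 0 and 9 counts in each of the 30 libraries and 52 in all. Its neighbour Chkb, a choline kinase, had between 0 and 10 counts and 88 in all. A readthrough gene on the same strand, Gm44502, covers 81.4% of the exon bases of Cpt1b and 50.7% of those of Chkb in the GENCODE vM21 annotation. That readthrough gene was not analysed here. How reads on more than 1 gene were counted is not given in the sources used here, so the low counts do not show that Cpt1b is not expressed; the part of the readthrough gene was not tested. Ckm, a defining marker of skeletal muscle, was at 0 in all male control adipocyte libraries and at most 0.997 CPM in any library. The actin gene Acta1, on the same marker list, was at 35.0 to 72.4 CPM in those libraries.

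**Figure D1:**
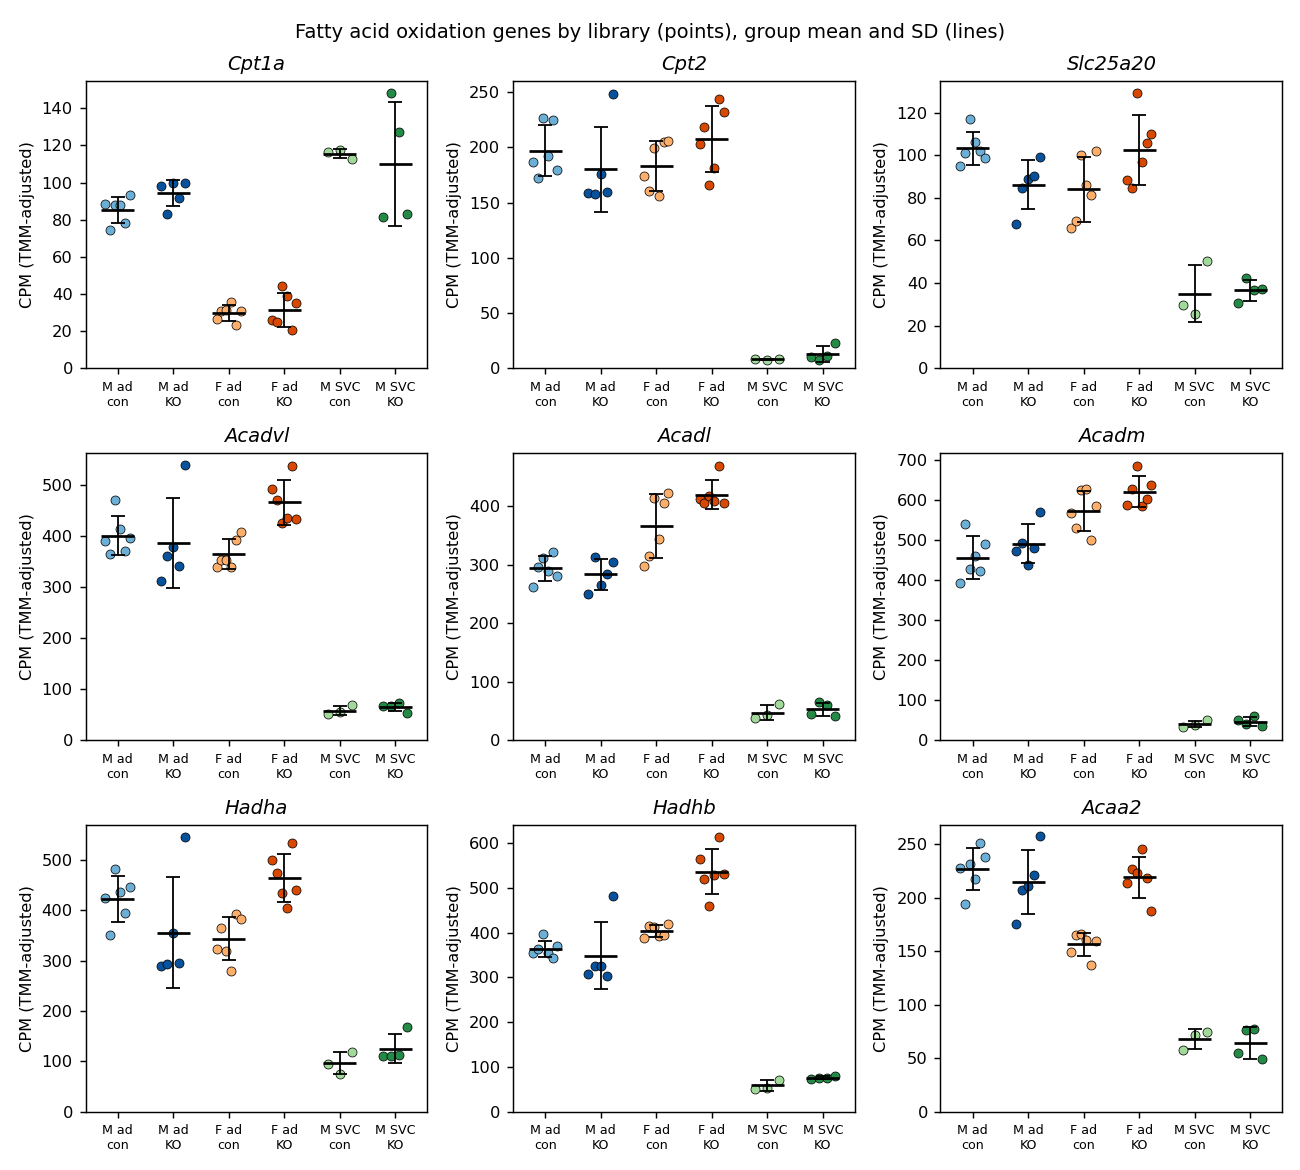
Level of each of the 9 tested genes (y axis, TMM-adjusted CPM, from 0) in every library (points) of the 6 groups (x axis; M male, F female, ad adipocytes, con control, KO knockout), with group mean and SD (lines). Cpt1a alone is highest in SVC and lowest in female adipocytes, and the other 8 genes are lower in SVC than in any adipocyte group.

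Between fractions, 8 of the 9 tested genes were higher in male control adipocytes than in male control SVC and 1, Cpt1a, was lower. The same comparison called 77.1% of all genes tested, 32.8% higher and 44.2% lower, and the count is to be read against those shares. Their median log2 fold change was 2.50, against -0.295 for all genes. In such bulk libraries, fewer cells of a type and less RNA per cell cannot be told apart.

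Cpt2 differed most: it was at 8.72, 7.68 and 7.95 CPM in the 3 SVC controls and at 172 to 226 CPM (median 190) in the 6 adipocyte controls. The log2 fold change was 4.46 ± 0.33 (SE; edgeR adjusted p = 2.01e-09). Acadm stood at 33.1, 37.4 and 48.7 CPM in SVC and at 392 to 541 CPM (median 444) in adipocytes, a log2 fold change of 3.39 (edgeR adjusted p = 1.65e-10). The ranges were far apart for both genes.

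For the remaining enzymes the log2 fold changes were 2.67 for Acadvl, 2.52 for Acadl, 2.50 for Hadhb, 2.01 for Hadha, 1.61 for Acaa2 and 1.44 for Slc25a20 (largest edgeR adjusted p of these, 1.32e-06). Groups did not overlap for any of the 8; 34.4% of all genes were higher without overlap and 38.3% lower. Acaa2, the thiolase, was at 57.7, 71.6 and 74.9 CPM in SVC and at 195 to 251 CPM in adipocytes. The carrier Slc25a20 was at 29.6, 25.2 and 50.3 CPM in SVC against 94.8 to 117 CPM.

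Cpt1a, the entry enzyme, went the other way. It was at 117, 117 and 113 CPM in SVC controls and at 74.6 to 93.4 CPM (median 87.8) in adipocyte controls, with no overlap. The log2 fold change was -0.58 ± 0.15 (edgeR adjusted p = 0.00237). All 9 calls held under every scaling, filter and tool tried and without each library in turn, but the sizes moved. Over these settings Cpt1a ran from -1.14 to -0.54, Slc25a20 from 0.91 to 1.77 and Acaa2 from 1.06 to 1.67. Leaving out 1 library by itself moved Cpt1a only between -0.61 and -0.54.

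The other lists are to be read against the same 32.8% higher and 44.2% lower of all genes. Of 25 other mitochondrial enzymes of beta-oxidation and related acyl-CoA breakdown, 25 were higher in adipocytes (median log2 2.90). They were led by Acad11 at 4.71, Ivd, a leucine-breakdown dehydrogenase, at 4.46 and the short-chain dehydrogenase Acads at 4.19. The list also holds enzymes outside the spiral, such as Pcca and Mmut of propionyl-CoA breakdown and the thioesterase Acot2. Of 18 peroxisomal genes, 15 were higher and 0 lower, with Acaa1b at 6.64. Of 9 genes that set or answer malonyl-CoA, the inhibitor of Cpt1, 7 were higher and 0 lower, with the acetyl-CoA carboxylases Acacb at 5.35 and Acaca at 5.21 and malonyl-CoA decarboxylase, Mlycd, at 3.06. Activation and carnitine genes were split, 8 higher and 6 lower of 14 tested, with Acsl1, the main acyl-CoA synthetase of fat, at 5.49 and, among the lower, the synthetase Acsl6 and Bbox1, the last enzyme of carnitine synthesis. Acsl6 had 228, 20 and 7 counts in the SVC controls and Bbox1 99, 41 and 27, and neither had more than 1 count in any adipocyte control, so no fold is given. Of 7 ketone body genes, 4 were higher, with Aacs, an acetoacetyl-CoA synthetase, at 4.92, and 2 were lower, Bdh2 at -4.29 and the ketone body dehydrogenase Bdh1 at -3.98. Of 11 PPAR target genes outside the spiral, 7 were higher and 2 lower, and of 15 regulators 13 were higher and 1 lower.

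**Figure D2:**
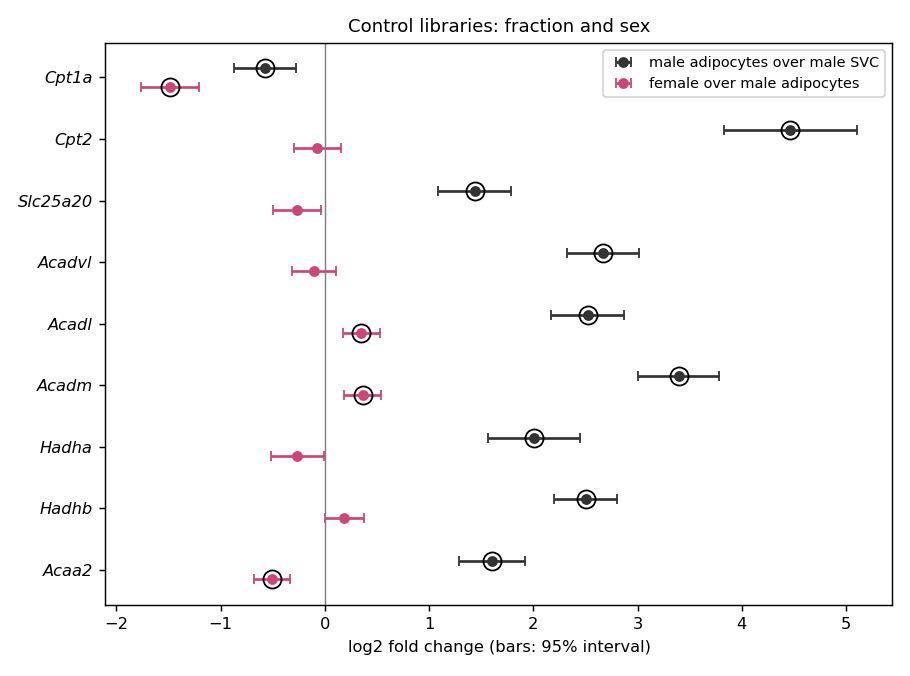
Log2 fold change of each gene (x axis) in control libraries, male adipocytes over male SVC and female over male adipocytes. Bars are 95% intervals from a normal quantile, and circled points were called. Cpt1a lies left of 0 in both contrasts, and the other 8 genes lie between 1.44 and 4.46 between fractions.

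In control adipocytes of females, against those of males, the entry enzyme Cpt1a and the thiolase Acaa2 were lower, and the dehydrogenases Acadl and Acadm were higher. These are 4 of 9 genes called, against 43.8% of all genes tested (23.7% higher, 20.1% lower), a share near the background, so nothing about the pathway as a whole is read from it. The labels name the same depots for the sexes, including the epididymal depot of males, so sex and depot cannot be told apart here.

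Cpt1a was at 23.4 to 35.5 CPM (median 30.8) in 6 female controls and at 74.6 to 93.4 CPM (median 87.8) in 6 male controls. The log2 fold change was -1.48 ± 0.14 (edgeR adjusted p = 3.68e-08), and the ranges were wide apart. Acaa2 was at 138 to 166 CPM (median 160.0) in females and 195 to 251 CPM (median 230) in males, a log2 fold change of -0.50 ± 0.09 (edgeR adjusted p = 8.25e-05). Cpt1a and Acaa2 were the genes whose groups did not overlap, 2 of 9 against 21.2% of all genes.

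Acadl was at 298 to 423 CPM in females and 262 to 321 CPM in males (log2 0.35, edgeR adjusted p = 0.0037), and Acadm at 500.4 to 628 against 392 to 541 CPM (log2 0.36, adjusted p = 0.0025). The ranges overlapped for both. The other 5 were not called: Slc25a20 at -0.27 (edgeR adjusted p = 0.0661), Hadha at -0.27 (0.104), Hadhb at 0.18 (0.119), Acadvl at -0.10 (0.447) and Cpt2 at -0.07 (0.648). Slc25a20 and Hadha passed the threshold under some alternatives.

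Around these, Acacb, the carboxylase that makes malonyl-CoA at the mitochondrial surface, was lower in female controls (log2 -1.73, edgeR adjusted p = 0.000561). The fatty acid sensing receptor Ppara was lower (-0.99, adjusted p = 0.00854), while Pdk4, the kinase that restrains pyruvate oxidation, was higher (1.98, adjusted p = 1.08e-05). Counts of called genes in these lists are to be read against 23.7% of all genes called higher and 20.1% called lower. Of the 25 other mitochondrial enzymes of beta-oxidation and related breakdown, 7 were higher and 4 lower, near those shares. Beside this, markers of brown and beige fat were higher in female controls, 6 of 9 tested called higher and 0 lower (median log2 1.27), with a summed level of 36.5 to 168 CPM against 10.1 to 94.6 CPM in males. The summed level of 12 skeletal muscle markers was 78.5 to 298 CPM in female and 36.2 to 75.1 CPM in male controls, most of it Acta1, with 1 of 4 tested called higher and 1 lower. Macrophage markers were lower, 6 of 10 called. The summed level of these 10 markers was 253 to 546 CPM in female and 557 to 1084 CPM in male controls, and that of 5 smooth muscle markers was 98.3 to 442 against 37.7 to 88.7 CPM. Smooth muscle markers were called higher in 4 of 5, preadipocyte markers in 3 of 9, erythroid markers in 2 of 5 and epithelial markers in 1 of 3 tested. In each of these lists 0 were called lower. The part of any of these in the result was not tested.

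In female adipocytes, the thiolase Acaa2 was higher in knockout than in control libraries, and the other 8 genes had positive fold changes that were not called. The median of the 9 was 0.29, against 0.0064 for all genes, of which 51.5% were positive. Acaa2 was 1 of 9 called, against 0.471% of all genes tested (0.323% higher). Of the 9, 6 had an unadjusted p below 0.05, against 10.3% of all genes, and in 4 (Acadvl, Hadha, Hadhb and Acaa2) no knockout library overlapped a control, against 0.485% of all genes higher without overlap.

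Acaa2, which cleaves acetyl-CoA from the chain, was at 138 to 166 CPM (median 160.0) in controls and at 188 to 246 CPM (median 221) in knockouts. The log2 fold change was 0.49 ± 0.09 (edgeR adjusted p = 0.00769). It was called without each of the 12 libraries in turn (adjusted p from 0.0040 to 0.0270). The knockout females overlapped the male controls, at 195 to 251 CPM.

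Hadhb, the thiolase subunit of the trifunctional protein, was at 389 to 421 CPM (median 404) in controls and at 460.1 to 613 CPM (median 529.7) in knockouts. Its log2 fold change was 0.41 ± 0.10, and the edgeR adjusted p of 0.0505 missed the threshold; DESeq2 gave 0.00286, limma-voom 0.0486, and edgeR without knockout replicate 3 gave 0.0346. Hadha, the hydratase and dehydrogenase subunit, was at 280.0 to 393 CPM in controls and 404 to 533 CPM in knockouts (log2 0.43 ± 0.13, edgeR adjusted p = 0.166). The groups of Hadha and Hadhb did not overlap.

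Acadvl was at 340 to 409 CPM in controls and 426 to 538 CPM in knockouts (log2 0.36 ± 0.11, edgeR adjusted p = 0.155). The other dehydrogenases differed less, Acadl by 0.20 (adjusted p = 0.455) and Acadm by 0.12 (adjusted p = 0.696). The transport genes were not called: Slc25a20 at 0.29 (edgeR adjusted p = 0.367), Cpt2 at 0.18 (0.635) and Cpt1a at 0.09 (0.885). Cpt1a, at 23.4 to 35.5 CPM in controls and 20.5 to 44.1 CPM in knockouts, spread widely among the knockouts, and its fold change was -0.03 without knockout replicate 3.

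Beside this, brown and beige fat markers were higher in female knockouts. Calls in this and the lists that follow are to be read against 0.471% of all genes. The summed level of 10 such markers was 36.5 to 168 CPM (median 60.4) in controls and 177 to 341 CPM (median 254) in knockouts, with no overlap; 9 of 9 tested had positive fold changes, 3 were called, and Zic1 was at 0. Of the genes named for this comparison, the brown fat protein Cidea was at 11.4 to 42.4 CPM in controls and 72.7 to 111 CPM in knockouts (log2 2.01, edgeR adjusted p = 0.0364), and Ucp1, the uncoupling protein, at 3.73 to 82.8 against 31.3 to 151 CPM (log2 1.90, adjusted p = 0.541). Macrophage markers went the other way, 10 of 10 negative with 1 called and a summed level of 253 to 546 CPM in controls against 74.8 to 311 CPM in knockouts. Mesothelial markers were negative in 7 of 7 with 0 called (median log2 -1.32, sums of 9.85 to 56.9 against 8.64 to 17.96 CPM), and epithelial markers in 3 of 3 with 0 called (median -3.37, sums of 0.852 to 63.9 against 0.795 to 2.63 CPM, Krt5 and Krt14 at 0 in knockouts). The part of any of these in the oxidation genes was not tested.

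Among regulators, 1 of 15 tested was called: Ppargc1a, the coactivator of mitochondrial gene expression, at 1.76 to 5.59 CPM in controls and 4.46 to 11.4 CPM in knockouts (log2 1.22, edgeR adjusted p = 0.0143). Of the genes of PPAR targets outside the spiral, 1 of 11 was called, which was Cidea. Ppargc1a and Cidea are both among the brown and beige markers counted above, so these calls are not separate from that count. Of the other lists, 0 of 12 activation and carnitine genes and 0 of the 25 other mitochondrial enzymes were called. So were 0 of 9 malonyl-CoA genes, 0 of 18 peroxisomal genes and 0 of 6 ketone body genes. The smallest p-values there belonged to Acsf2 (log2 0.59), Etfdh (0.30), which passes electrons from the dehydrogenases to the respiratory chain, Acacb (1.18), Abcd3 (0.29) and Bdh2 (-0.51), with edgeR adjusted p from 0.144 to 0.691.

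**Figure D3:**
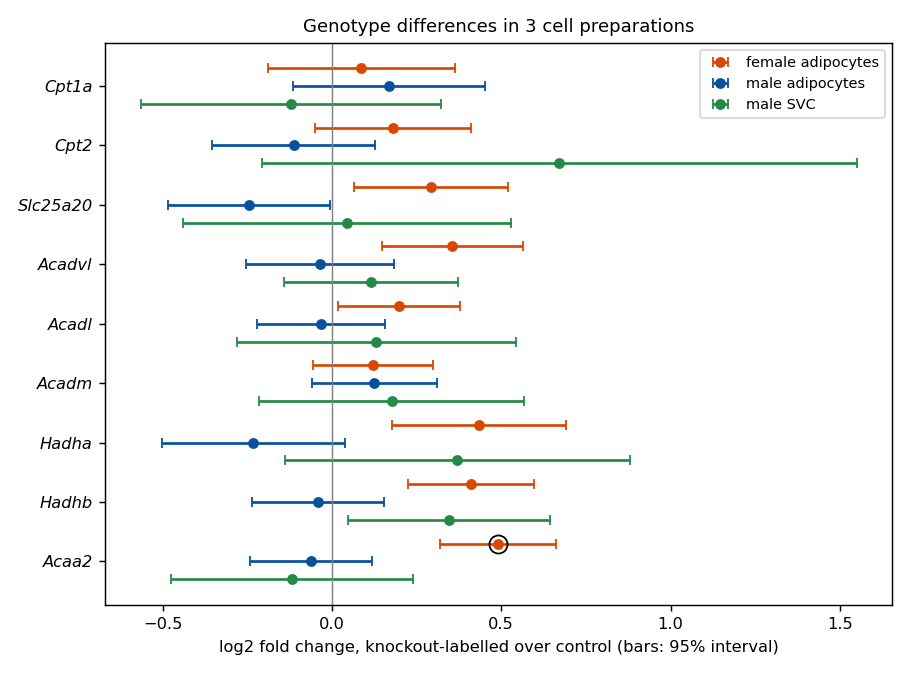
Log2 fold change of knockout over control for each gene (x axis) in female adipocytes, male adipocytes and male SVC. Bars are 95% intervals from a normal quantile, narrower than the F-test implies, and the circled point was called. The bar of Slc25a20 in male adipocytes excludes 0 although its unadjusted edgeR p was 0.0567. That of Hadhb in SVC does so too, with an unadjusted edgeR p of 0.0570. All 9 female values lie right of 0, from 0.09 for Cpt1a to 0.49 for Acaa2, whereas 7 of 9 male adipocyte values lie left of it.

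In male adipocytes none of the 9 genes was called between genotypes, 0 of 9 against 0.0703% of all genes tested by edgeR, and 0 of 9 had an unadjusted p below 0.05 (13.1% of all genes); DESeq2 and limma-voom called 0 of 9 as well. The fold changes were small, 7 negative and 2 positive (52.5% of all genes were positive), with a median of -0.04, and the groups overlapped for all 9 (1.75% of all genes did not overlap). Acaa2 was at 195 to 251 CPM (median 230) in controls and at 175, 207, 211, 221 and 258 CPM in the 5 knockouts (log2 -0.06; 95% interval -0.24 to 0.12).

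Male knockout replicate 5 was the highest of its group for 8 of the 9 genes, all but Acadl. Hadha was at 289, 293, 354, 296 and 546 CPM in knockout replicates 1 to 5 and at 352 to 483 CPM (median 431) in controls. Hadhb was at 309, 325, 325, 304 and 483 CPM, against 343 to 396 CPM. The first 4 values of Hadhb lay below every control and the fifth above all of them.

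Hadha had a log2 fold change of -0.23 (edgeR adjusted p = 0.481) with all libraries and of -0.43 (adjusted p = 0.0399) without replicate 5. Without it the number of all genes called rose from 10 to 332. That library's summed brown and beige marker level was 46.1 CPM, against 15.2 to 20.8 CPM in the other 4 knockouts. Controls were at 10.1 to 94.6 CPM, with 94.6 CPM in replicate 2 and at most 22.3 CPM in the others. The library's endothelial marker sum was 496 CPM, against 170 to 291 CPM in the other 4 knockouts and 177 to 363 CPM in controls. Its mesothelial sum was 5.99 CPM, against 7.18 to 24.6 CPM in the other 4 knockouts and 17.8 to 119 CPM in controls. The part of any of these was not tested.

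**Figure D4:**
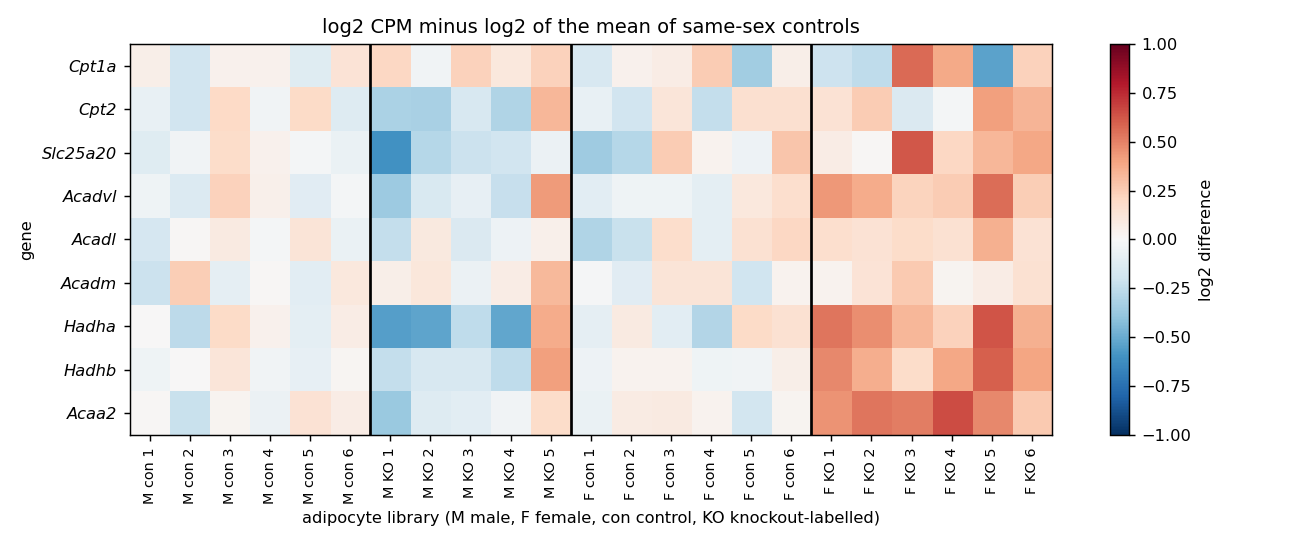
Log2 CPM of each gene (rows) in each of the 23 adipocyte libraries (columns), less the log2 of the mean of the same-sex controls; red is higher and blue lower, and black lines part the 4 groups. Female knockouts are red in Acadvl, Hadha, Hadhb and Acaa2 throughout, and male knockout replicate 5 is red where the other male knockouts are blue in Hadha and Hadhb.

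The difference between the female and the male genotype effect was tested directly. By edgeR 0 of 9 genes were called, against 0.0141% of all genes, and 5 of 9 had an unadjusted p below 0.05, against 8.87%. Hadha differed by 0.67 (edgeR adjusted p = 0.358), Acaa2 by 0.55 (0.277; DESeq2 0.0293), Slc25a20 by 0.54 (0.379), Hadhb by 0.45 (0.378) and Acadvl by 0.39 (0.491). Without male knockout replicate 5, Hadha (0.87, edgeR adjusted p = 0.0194), Hadhb (0.59, 0.0194) and Acaa2 (0.63, 0.0466) were called. For all genes, this comparison called 2 of 14227 with all libraries and from 0 to 22 when 1 library was left out. With all libraries, then, edgeR called no difference between the sexes among the 9 genes, and DESeq2 called that of Acaa2.

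Averaged over the sexes, 0 of 9 were called by edgeR (0.759% of all genes), 3 of 9 had an unadjusted p below 0.05 (15.0% of all genes), and all 9 fold changes were positive (52.4% of all genes), from 0.02 for Slc25a20 to 0.21 for Acaa2 (edgeR adjusted p = 0.109). Without male knockout replicate 5, Cpt2 was at -0.033, Slc25a20 at -0.00046 and Hadha, otherwise at 0.10, at 0.0026. Of the 15 regulators 1 was called in this average, Ppargc1a (log2 0.80, edgeR adjusted p = 0.024). Of 7 mesothelial markers 3 were called lower and 0 higher. In male SVC 0 of 9 were called, as were 0% of all genes by edgeR, with 0 of 9 at an unadjusted p below 0.05 (2.62% of all genes); DESeq2 called 76 genes and 0 of the 9. Hadhb was at 50.6, 53.8 and 71.7 CPM in SVC controls and at 73.3, 75.3, 74.9 and 80.3 CPM in SVC knockouts, the 1 of 9 whose groups did not overlap (3.07% of all genes did not); its log2 fold change was 0.35 (edgeR adjusted p = 0.968). In the same libraries adipocyte markers were positive in 8 of 8 with 0 called (median log2 1.17, sums of 616 to 1333 CPM in controls and 1277 to 1734 CPM in knockouts), and mesothelial markers negative in 7 of 7 with 0 called (median -2.43, sums of 171 to 426 against 67.8 to 109 CPM); their part was not tested.

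Cpt2 was low in SVC knockouts too, at 10.1, 7.23, 11.3 and 23.1 CPM, with replicate 4 highest. Its log2 fold change was 0.67 with a 95% interval of -0.21 to 1.55, and was 0.157 without replicate 4. Hadha in SVC was at 0.37 with that library and 0.141 without it. The genotype effects of the fractions differed for 0 of 9 genes by edgeR (0% of all genes), with 3 of 9 (Cpt2, Hadha and Hadhb) at an unadjusted p below 0.05 (6.66% of all genes) and 0 by DESeq2, which called 14 of all genes. For Cpt2 that difference was -0.78 with all libraries and -0.33 without SVC knockout replicate 4.

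Across the 6 groups the order of mean levels had few steps beyond the spread. For 8 of 9 genes a gap without overlap parted adipocyte groups from SVC. For Cpt1a the gap lay between male control adipocytes (85.0 CPM) and female knockout adipocytes (31.5 CPM), and the SVC and male adipocyte groups overlapped in neighbouring order. Hadhb was the only gene whose female knockout mean (536 CPM) stood clear of the next group, female controls (404 CPM). It was not clear of male knockouts, whose replicate 5, at 483 CPM, lay within the female knockout range. For Acaa2, male knockout adipocytes (mean 215 CPM) also stood clear of the next group, female controls (156 CPM).

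Within groups, some of the genes varied together. With each library's log2(CPM + 1) centred on its group, 8 of 36 pairs passed the threshold by Pearson's r and 6 by Spearman's rho over 23 adipocyte libraries (100000 permutations within groups, two-sided, Benjamini-Hochberg over the 36 pairs). Acadvl and Hadha had Pearson's r of 0.928 and Spearman's rho of 0.878, with p = 1e-05 for each, the smallest the permutations can give, and r was 0.86 without the 2 libraries farthest in Acadvl. Hadha and Hadhb had r of 0.811 and rho of 0.663 (permutation adjusted p 0.00662 and 0.018), and r of 0.647 without the 2 farthest libraries. Cpt1a had r between -0.373 and 0.378 with the other 8 genes, and none passed by either measure.

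By the standardised mean of the 9 genes, the 5 non-members most like it among 8370 genes of at least 10 CPM were Nif3l1 (r = 0.881), Decr1 (0.861), which acts on unsaturated chains in the same spiral, Zc3hc1 (0.851), Ppox (0.829), a mitochondrial enzyme of haem synthesis, and Saraf (0.822). Of the 9 genes themselves, Acadvl followed that mean most (r = 0.849) and Cpt1a least (0.105). These values share libraries and scaling, and members enter their own mean.

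**Figure D5:**
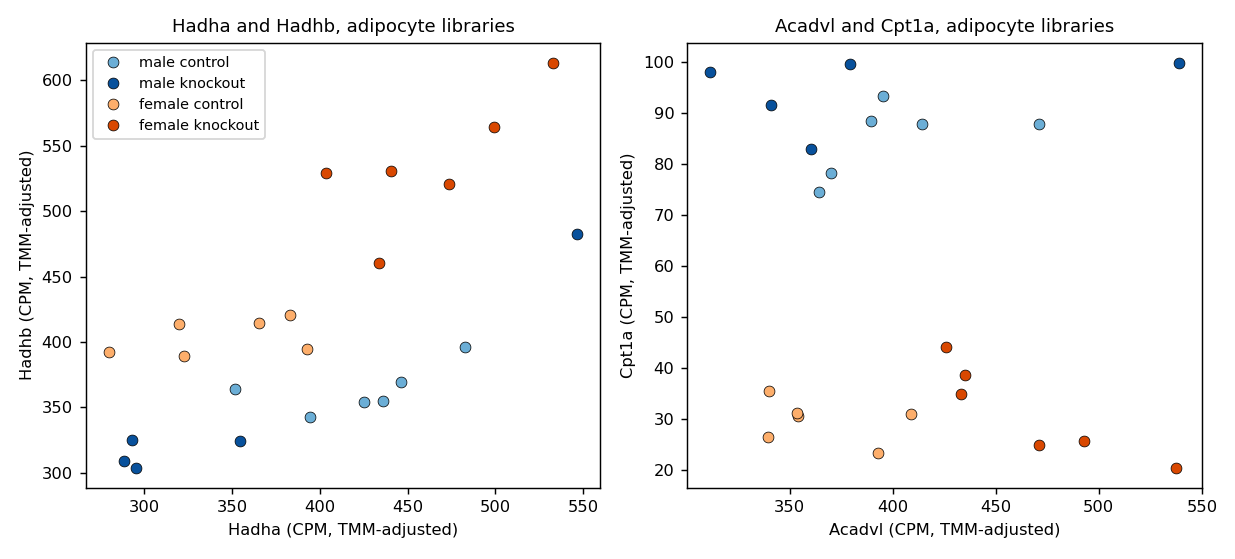
Hadhb against Hadha (left) and Cpt1a against Acadvl (right), in TMM-adjusted CPM, for the 23 adipocyte libraries coloured by group. Hadha and Hadhb rise together (r = 0.811 within groups), while Cpt1a separates males from females and has no such relation to Acadvl (r = -0.243).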

How the data were processed

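RNA was measured in 30 strand-specific mRNA libraries. The deposited raw counts per gene, whole numbers, were made by the authors; the submitters' processing notes name STAR 2.7.11a, FastQC 0.12.1, DESeq2 and genome build mm39. The counter, its annotation and its strand setting are not stated. The deposited log2 values are regularised logarithms by the authors, per the file headers; they were used as a check on direction and had the same sign as the fold change in 45 of 45 comparisons. There were 0 columns left unused.

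Counts were tested with edgeR 4.0.16 in R 4.3.3 (quasi-likelihood F-test, TMM, filterByExpr with minimum count 10, robust), over 23 adipocyte, 7 SVC or 18 male libraries. The SE is the fold change divided by the square root of F. Intervals are the fold change plus or minus the SE times a normal quantile, and are narrower than the F-test implies. Calls rest on the p-values of the F-test and not on the intervals. Alternatives were RLE and upper-quartile scaling, library totals, no filter, DESeq2 1.42.0, limma 3.58.1 (voom), fits of the groups compared alone, replicate blocks and leaving out each library. The procedure was tested on simulated data. No libraries of a group agreed within counting noise (lowest chi-square per degree of freedom 12.9). All 10 genes of the pathway are named, and from each list up to 3 called genes of largest change or else the gene of smallest p. A gene picked in this way was left out of the text. The genes and lists were chosen with earlier results of these data known.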

Additional observations from a re-analysis of the deposited data

Results flagged for a closer look

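Of 45 sets of 1 gene in 1 group that were examined, 5 held a library far from the others of its group by Dixon's test, which chance does in about 1 of 20. In male knockout adipocyte replicate 5, Cpt2 was at 247.93 CPM (the other 4 at 158 to 176), Hadha at 546.48 CPM (289 to 354) and Hadhb at 482.64 CPM (304 to 325). In female knockout adipocyte replicate 5, Acadl was at 469.9 CPM against 405 to 417 CPM in the other 5. In male SVC knockout replicate 4, Hadha was at 168.31 CPM against 110.2 to 113 CPM in the other 3.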

How the results depend on the processing

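The 9 calls between fractions and the 4 between the sexes held in every alternative, and Acaa2 in female adipocytes did too. Counts of all genes called moved with the tool: for the male genotype from 10 to 159 with DESeq2, 6 with only the groups compared and 17 with the replicate block (4 to 332 without 1 library); for the female genotype from 67 (46 higher) to 206 with DESeq2 and 26 with only the groups compared (32 to 89 without 1 library), and to 89 with 36 higher under library totals; averaged over sexes from 108 to 350 with DESeq2 and 180 with the block (60 to 246); for the difference between sexes from 2 to 1 without the filter, 23 with DESeq2 and 1 with the block (0 to 22); for SVC from 0 to 76 with DESeq2 and 1 with the block (0 to 1); and for the difference between fractions from 0 to 14 with DESeq2 (0 to 1). Of the pathway, female calls went from 1 to 2 with DESeq2 and limma-voom (1 to 2 without 1 library), calls for the difference between sexes from 0 to 1 with DESeq2 (0 to 3), and male calls ranged from 0 to 1 without 1 library. Between fractions, library totals moved the median of all genes from -0.295 to -0.85 and the higher calls from 5661 of 13293 to 3809 of 13544. Slc25a20 between the sexes was called with DESeq2 (adjusted p = 0.0392).

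Signs turned only for values near 0, and the cause was not tested. With library totals the male log2 fold change was 0.000113 for Acadvl and 0.0021 for Acadl; the difference between sexes of Acadm was 0.00088 with RLE scaling and 0.00091 with DESeq2; Slc25a20 in SVC was -0.0218 with upper-quartile scaling, and the difference between fractions of Acaa2 was -0.0133 without the filter. Without 1 library, log2 values ranged from -0.179 to 0.0182 (male Acadvl), -0.079 to 0.00046 (male Acadl), -0.0316 to 0.186 (female Cpt1a), -0.0330 to 0.0611 (Cpt2, averaged), -0.0167 to 0.055 (Slc25a20, averaged), -0.197 to 0.0162 (Cpt1a, between sexes), -0.0731 to 0.0513 (Acadm, between sexes), -0.282 to 0.0076 (Cpt1a, SVC), -0.0845 to 0.348 (Slc25a20, SVC), -0.0859 to 0.127 (Acaa2, between fractions) and -0.248 to 0.0711 (Acadm, between fractions).

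Whether replicate numbers pair libraries was not settled. Same-numbered libraries correlated above 0.1 in 5 of 6 female genotype pairs (median 0.42, against -0.12 for other pairs). In male genotype pairs they did in 1 of 5 (median 0.035 against 0.001). Across fractions, where column names share numbers, they did in 2 of 3 control pairs (median 0.259, against -0.015 for other pairs) and 3 of 3 knockout pairs (0.142 against -0.01); with that block all 9 genes were still called between fractions, Cpt1a at -0.65 (edgeR adjusted p = 0.0122). With the replicate block, Acaa2 in females had a log2 fold change of 0.49 (edgeR adjusted p = 0.0101).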
